A study of Mus musculus with 2 samples.

Results

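The genes described here are 10 regulators of the first lineages that leave the pluripotent state, chosen by symbol out of 27998 genes in the deposited table: Cdx2, Tfap2c, Eomes, Gata3, T, Wnt3, Mixl1, Evx1, Kdr and Cer1. All 10 were found, each once. They were measured in 2 single-cell RNA libraries of E14 cells, a male mouse embryonic stem cell line grown without feeder cells in 2i/LIF, the medium with inhibitors of the kinases MEK and GSK3 and with leukaemia inhibitory factor that holds cells in the naive state. One library came from cells given Idoxuridine, a thymidine analogue that is built into new DNA, for 24 h, at 10 µM by the treatment label (another label field reads mM), and the other from cells given the solvent DMSO for 24 h. The study tested the drug as an enhancer of expression noise, that is, of differences between like cells. The strain label reads C57BL/6, although E14 is generally described as a line of another strain.

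In the early mouse embryo, trophectoderm is the outer cell layer that forms the placenta. Cdx2, Gata3, Tfap2c and Eomes act there as transcription factors, and Cdx2 and the pluripotency factor Oct4 (gene Pou5f1) hold each other down. Later, the primitive streak forms where Wnt3 and Nodal signals switch on T, which encodes Brachyury, together with Eomes, Mixl1 and Evx1, and cells that pass through it become mesoderm, marked early by the receptor gene Kdr, or endoderm, which with its neighbours secretes the Nodal and Wnt antagonist Cer1. The GSK3 inhibitor in 2i mimics a canonical Wnt signal, which acts on DNA through TCF factors. Tfap2c is also expressed in naive stem cells, so it is the regulator of the set with a known place in this culture.

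The promoters of T, Wnt3, Evx1 and Cdx2 are shown because the results turn on these genes: they were higher in the Idoxuridine library and shared cells with each other. Each window runs from 250 bases before to 50 bases after the gene start, in RefSeq's table for GRCm38.p6, which held 8 of the 10 genes and not Tfap2c or Mixl1. Capitals mark 2 motifs, searched on both strands: the TCF motif (CTTTGAA or CTTTGAT or CTTTGTA or CTTTGTT) and the octamer ATGCAAAT, which POU factors such as Oct4 recognise. The 2 motifs did not overlap in these windows.
T, GRCm38.p6 chr17:8434173-8434472, plus strand: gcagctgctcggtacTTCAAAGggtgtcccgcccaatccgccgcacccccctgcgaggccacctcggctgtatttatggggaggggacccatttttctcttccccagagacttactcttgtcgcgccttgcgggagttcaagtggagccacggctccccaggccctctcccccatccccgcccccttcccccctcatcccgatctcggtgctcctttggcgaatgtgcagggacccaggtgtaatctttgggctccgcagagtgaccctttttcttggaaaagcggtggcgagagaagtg
Wnt3, GRCm38.p6 chr11:103773925-103774224, plus strand: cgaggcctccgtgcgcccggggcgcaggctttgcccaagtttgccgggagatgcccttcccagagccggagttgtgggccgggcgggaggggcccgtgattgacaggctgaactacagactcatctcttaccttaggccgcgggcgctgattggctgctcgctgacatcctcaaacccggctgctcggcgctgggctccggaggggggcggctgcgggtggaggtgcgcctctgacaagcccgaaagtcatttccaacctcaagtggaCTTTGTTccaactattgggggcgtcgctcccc
Evx1, GRCm38.p6 chr6:52313248-52313547, plus strand: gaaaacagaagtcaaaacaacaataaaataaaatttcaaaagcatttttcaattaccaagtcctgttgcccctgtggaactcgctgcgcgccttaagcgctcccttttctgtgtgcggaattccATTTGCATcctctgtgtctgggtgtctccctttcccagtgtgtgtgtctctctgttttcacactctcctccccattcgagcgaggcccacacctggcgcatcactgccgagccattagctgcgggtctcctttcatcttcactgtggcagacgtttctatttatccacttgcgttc
Cdx2, GRCm38.p6 chr5:147307200-147307499, minus strand: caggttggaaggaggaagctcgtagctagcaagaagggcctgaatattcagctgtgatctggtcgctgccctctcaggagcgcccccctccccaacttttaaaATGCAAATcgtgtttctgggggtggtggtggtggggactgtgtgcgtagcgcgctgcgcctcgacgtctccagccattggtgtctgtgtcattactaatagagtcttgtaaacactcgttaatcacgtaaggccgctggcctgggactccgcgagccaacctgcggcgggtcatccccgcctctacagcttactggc
The T window held 1 TCF match at bases 16 to 22, read on the minus strand relative to the gene, and the Wnt3 window held 1 at bases 269 to 275. Of 32851 windows of 300 bases in the table, 16.9% held this motif. The Evx1 window held the octamer at bases 125 to 132, on the minus strand relative to the gene, and the Cdx2 window held it at bases 104 to 111, against 1.74% of all windows. Neither motif was found in the windows of Eomes, Gata3, Kdr and Cer1. The RNA was counted at transcript 3′ ends, so these letters describe the genes and no binding or start site was measured.

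The 742 Idoxuridine cells gave 30454626 unique molecular identifiers (UMIs, each counting 1 captured transcript), or 37425 in the median cell. The 811 DMSO cells gave 40818344, or 44502 in the median cell. The libraries shared 2 cell barcodes. At a fixed depth of 23500 UMIs every Idoxuridine and DMSO cell compared below had a UMI of Pou5f1, a stem cell marker. Pou5f1 averaged 36.6 UMIs in Idoxuridine cells with Cdx2 and 47.1 in DMSO cells with Cdx2. At that level 1 UMI is nearly certain, so this does not check the stem cell label. RNAs that stay in the nucleus made up a median of 0.509% of UMIs per Idoxuridine cell and 0.319% per DMSO cell, and mitochondrial genes 2.81% and 2.56%. There was 1 library per treatment, so no test between treatments was possible, no p-value is given, and every difference is between these 2 libraries. Values in parentheses are 95% intervals that cover counting error only. Within a library, fewer cells expressing a gene and less RNA per cell cannot be told apart from the summed level alone.

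The first comparison asks which regulators were more or less abundant after Idoxuridine than after DMSO. Of the 10 genes, 6 were higher in Idoxuridine, 0 were lower, 2 were in neither group and 2 had under 50 UMIs over both libraries. The 6 were Wnt3, Evx1, T, Mixl1, Cdx2 and Tfap2c, and the 2 in neither group were Eomes and Kdr. Higher or lower here means at least 0.5 log2 apart in CPM, a gene's UMIs scaled to the library total, with separate intervals, among genes with at least 50 UMIs. By the same rule 24.5% of 12629 genes were higher and 3.72% were lower. The share depended on abundance: it was 48.0% of the 3964 genes with 50 to under 500 UMIs, the range of Eomes, Wnt3, Evx1, Mixl1 and Kdr, and 18.5% of the 6004 genes with 500 to under 5000 UMIs, the range of T, Cdx2 and Tfap2c. In these ranges 2.88% and 3.85% of genes were lower. At 1 log2 or more, 13.8% of all genes were higher and 0.602% lower, and 5 regulators were higher. With a minimum of 200 UMIs, 18.8% were higher and 4.20% lower, and 4 regulators were higher. The 3 of 5 rarer regulators that were higher are therefore near the background for rare genes, and the other 3 stand against the lower one. The median log2 ratio was 1.52 over the 8 regulators and 0.15 over all genes tested.

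**Figure D1:**
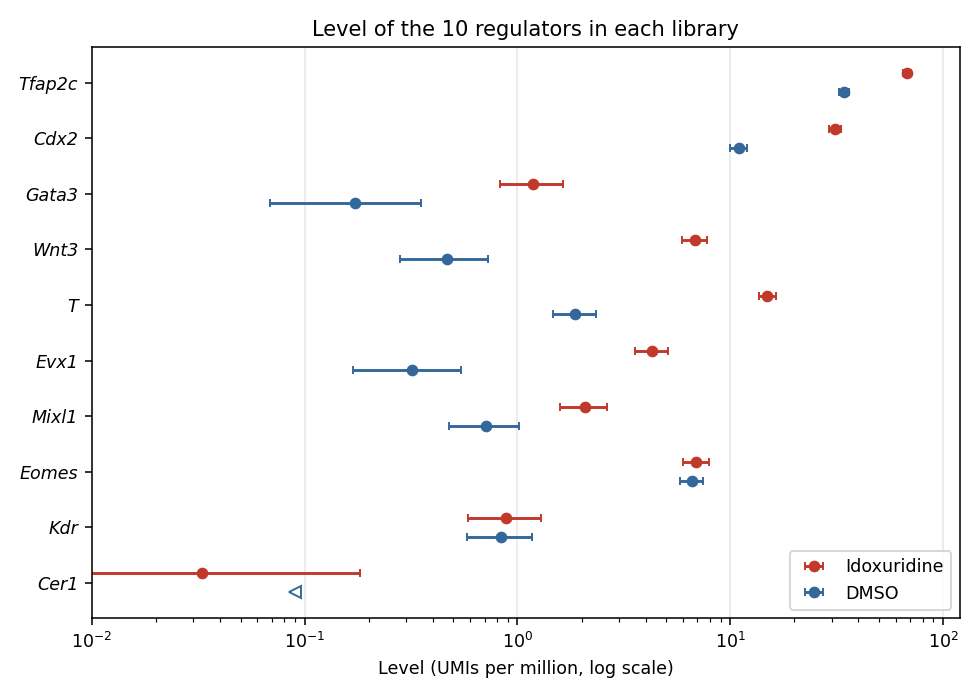
Level of each regulator in CPM (log axis) in the Idoxuridine library (red, upper point of each pair) and the DMSO library (blue, lower point), with exact Poisson 95% intervals for counting error; the open triangle marks the upper limit of Cer1 in DMSO, which had 0 UMIs. The points of Wnt3, Evx1 and T lie farthest apart, and those of Eomes and Kdr overlap.

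Among the trophectoderm regulators, Tfap2c encodes AP-2γ, which takes part in both trophectoderm and naive cells. It had 2062 UMIs in Idoxuridine, or 67.7 CPM (64.8 to 70.7), against 1398 UMIs in DMSO, or 34.2 CPM (32.5 to 36.1). The log2 ratio was 0.98 (0.88 to 1.08), and 94.7% of genes of similar abundance, in the same of these UMI ranges, had a lower one. Cdx2, a homeobox factor that acts in trophectoderm, had 942 UMIs in Idoxuridine, or 30.9 CPM (29.0 to 33.0). In DMSO it had 448 UMIs, or 10.98 CPM (9.98 to 12.0). Its log2 ratio of 1.49 (1.33 to 1.66) was above that of 97.5% of genes of similar abundance. Gata3, a zinc finger factor that acts beside Cdx2, was near 0 in both libraries. It had 36 UMIs in Idoxuridine, or 1.18 CPM (0.828 to 1.64), against 7 UMIs in DMSO, or 0.171 CPM (0.0689 to 0.353). With 43 UMIs in all it missed the minimum of 50, and its log2 ratio of 2.79 had a counting interval of 1.60 to 4.20.

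Among the streak regulators, Wnt3, the ligand needed for the streak to form, had 207 UMIs in Idoxuridine, or 6.80 CPM (5.90 to 7.79), against 19 UMIs in DMSO, or 0.465 CPM (0.280 to 0.727). This was a 14.6-fold difference, a log2 ratio of 3.87 (3.19 to 4.63), and 116 of the 12629 genes had a higher one. Evx1, a homeobox gene of the posterior streak, had 130 UMIs in Idoxuridine, or 4.27 CPM (3.57 to 5.07), against 13 UMIs in DMSO, or 0.318 CPM (0.170 to 0.545). That is a log2 ratio of 3.74 (2.92 to 4.69), exceeded by 130 genes. Both genes were close to silent in DMSO cells.

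T stood at 14.9 CPM (13.6 to 16.3) in Idoxuridine, from 454 UMIs, and at 1.86 CPM (1.47 to 2.33) in DMSO, from 76 UMIs. This was an 8.01-fold difference, with a counting interval of 2.65 to 3.37 on the log2 scale, above that of 99.5% of genes of similar abundance. Mixl1, a homeobox gene that Nodal signals switch on in the streak, had 63 UMIs in Idoxuridine, or 2.07 CPM (1.59 to 2.65), against 29 UMIs in DMSO, or 0.710 CPM (0.476 to 1.02). Its log2 ratio of 1.54 (0.89 to 2.23) was above that of 77.4% of genes of similar abundance, so it stood out least among the 6 higher regulators. Eomes, a T-box factor like Brachyury that acts in trophectoderm as well as streak, stood apart from them. It had 211 UMIs in Idoxuridine, or 6.93 CPM (6.02 to 7.93), against 269 UMIs in DMSO, or 6.59 CPM (5.83 to 7.43). The intervals overlapped, and its log2 ratio of 0.07 (-0.19 to 0.34) was -0.14 with TMM scaling. In the annotation an antisense gene covers the Eomes 3′ end and Evx1os overlaps Evx1 on the other strand, and whether the counting used strand is not given in the sources used here.

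Of the genes that act after the streak, Kdr, the receptor for the growth factor VEGF, had 27 UMIs in Idoxuridine, or 0.887 CPM (0.584 to 1.29), against 34 UMIs in DMSO, or 0.833 CPM (0.577 to 1.16). The log2 ratio of 0.09 (-0.70 to 0.86), which was -0.12 with TMM scaling, leaves room for a difference in either direction at this depth. Cer1 had 1 UMI in Idoxuridine and 0 UMIs in DMSO. Both counts are under the floor of 3 counts, which is 0.0985 CPM in Idoxuridine and 0.0735 CPM in DMSO, so no ratio is given and expression of Cer1 was not detectable at this depth.

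A further sum was limited by 1 measure of RNA quality. When only cells were summed whose share of nuclear-retained RNA lay between the 10th and 90th percentile of DMSO cells, 437 Idoxuridine and 649 DMSO cells remained. The same count of 6 regulators was higher, with log2 ratios of 4.04 for Wnt3, 3.77 for Evx1, 3.08 for T, 1.56 for Mixl1, 1.56 for Cdx2 and 0.93 for Tfap2c. In these cells the ratio was 2.13 for Gata3, against 2.79 in all cells, and 0.26 for Eomes. Whether other measures of RNA quality matched in these cells was not tested. TMM scaling shifted the ratio of all genes by -0.21, which turned the all-gene split of 3099 higher and 470 lower (86.8% higher) into 2243 higher and 1343 lower (62.5%). The 6 regulators were higher under it too, the smallest by 0.77 log2 (Tfap2c).

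The share of cells with a UMI was compared next; for genes with far fewer than 1 UMI per cell it follows the mean level, and more cells and more RNA per cell cannot be told apart by it. Every cell was thinned to 23500 UMIs, which left out 94 Idoxuridine cells (12.7%) and 47 DMSO cells (5.80%) that were shallower. At that depth T was seen in 20.8% of Idoxuridine cells and 3.64% of DMSO cells. Wnt3 was seen in 12.5% and 0.782%, and Evx1 in 7.77% and 0.692%. Cdx2 was seen in 35.8% of Idoxuridine cells and 14.2% of DMSO cells, and Tfap2c in 68.7% and 49.2%. All 5 of these were thus seen in more Idoxuridine cells, and Tfap2c was the gene of the set seen in most cells of both libraries.

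The other regulators were seen in fewer cells of the Idoxuridine library than Cdx2, Tfap2c and T, and Mixl1, Gata3, Kdr and Cer1 in few cells of either library. Mixl1 was seen in 4.99% of Idoxuridine cells and 1.66% of DMSO cells at the fixed depth, and Gata3 in 2.32% and 0.426%. Eomes was seen in 13.4% of Idoxuridine cells and 13.2% of DMSO cells, and Kdr in 2.00% and 1.95%, nearly equal shares that follow their levels. Cer1 was seen in 1 of 742 Idoxuridine cells, 0.135% (0.00341% to 0.749%), and in 0 of 811 DMSO cells, which allows a share of up to 0.370% by the floor of 3 counts and up to 0.454% by the exact binomial interval. Without thinning the shares were 79.5% of Idoxuridine cells and 68.8% of DMSO cells for Tfap2c, 19.1% and 2.22% for Wnt3, and 12.0% and 1.60% for Evx1. They were 7.55% and 3.33% for Mixl1, 4.04% and 0.863% for Gata3, 20.9% and 23.9% for Eomes, and 3.50% and 3.70% for Kdr. Cells of the DMSO library were deeper, and for Eomes and Kdr the unthinned share was the higher one there. All cells are of 1 line, so the share in a cell type that lacks these genes, which would show how much free RNA adds, could not be measured.

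**Figure D2:**
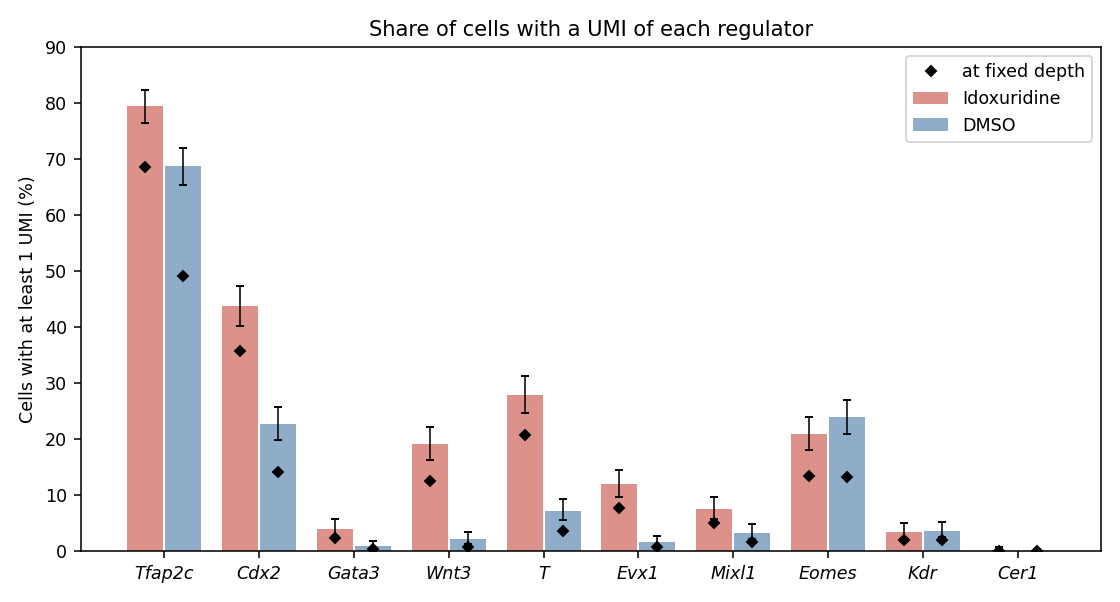
Percent of cells with at least 1 UMI of each regulator in Idoxuridine (red, left of each pair) and DMSO cells (blue), over all cells (bars, with exact binomial 95% intervals for counting error) and at the fixed depth of 23500 UMIs (black diamonds). Tfap2c, Cdx2, T, Wnt3 and Evx1 are seen in more Idoxuridine cells by both measures, and Eomes and Kdr in similar shares.

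Over whole cells without thinning, T-positive cells held more T UMIs each in Idoxuridine than in DMSO. A higher mean level raises this number as well as the share of positive cells. The number that the level alone would give was not computed. T had a UMI in 207 Idoxuridine cells, 27.9% (24.7% to 31.3%), of which 57 had at least 3 UMIs and the highest had 12. In DMSO it had a UMI in 59 cells, 7.27% (5.58% to 9.28%), of which 5 had at least 3 and the highest had 4. The mean was 2.19 UMIs per T-positive Idoxuridine cell and 1.29 per T-positive DMSO cell. Wnt3 had at least 3 UMIs in 14 Idoxuridine cells and 0 DMSO cells, and Evx1 in 9 and 0.

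Cdx2 was patchy in both libraries. It had a UMI in 325 Idoxuridine cells, 43.8% (40.2% to 47.5%), and in 185 DMSO cells, 22.8% (19.96% to 25.9%). The 5% of cells with the most Cdx2 UMIs held 32.6% of its UMIs in Idoxuridine and 58.5% in DMSO. That share also rises as a gene is seen in fewer cells, so it does not compare spread between the libraries. The Fano factor, which divides a gene's variance across cells by its mean and would be 1 from counting error only, was 2.36 in Idoxuridine and 3.63 in DMSO at the fixed depth. For Tfap2c it was 2.04 in Idoxuridine and 1.34 in DMSO. So Cdx2 and Tfap2c differed in opposite directions in spread, while both were higher in level. The DMSO value for Cdx2 rests on few cells, of which 9 had at least 10 UMIs, and Fano factors of the rarer regulators are not compared.

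**Figure D3:**
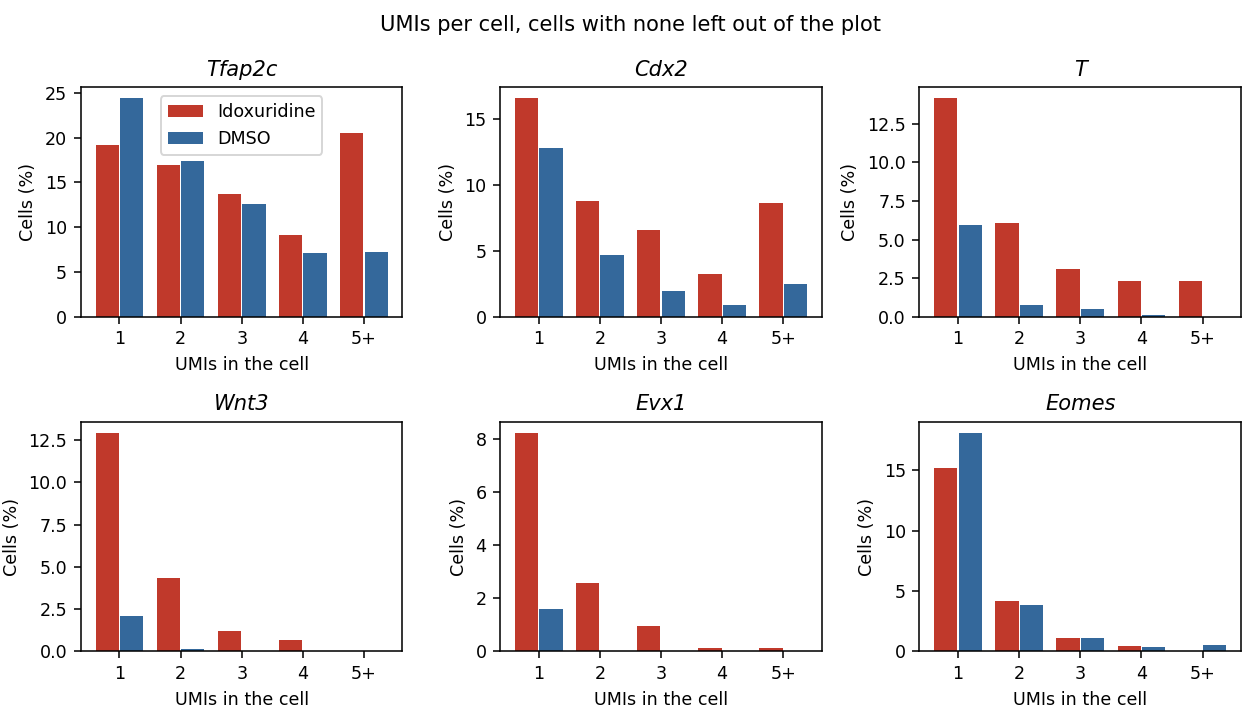
Percent of all Idoxuridine (red, left) and DMSO cells (blue, right) that had 1, 2, 3, 4 or at least 5 UMIs of 6 regulators, without thinning; vertical scales differ between panels. For T, 57 Idoxuridine cells and 5 DMSO cells had at least 3 UMIs, and for Eomes 11 and 16.

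Co-occurrence asks whether the regulators were seen in the same cells. At the fixed depth the number of cells with both genes was set beside the product of their shares, the number 2 unrelated genes would give, for pairs where that product was at least 3 cells. Of 45 pairs, 25 could be read in Idoxuridine and 8 in DMSO. The median of observed over product was 0.99 in Idoxuridine and 0.93 in DMSO, so most pairs met about as often as their shares give. The 6 highest ratios in Idoxuridine were the 6 pairs among 4 genes, T, Evx1, Wnt3 and Cdx2, a group picked out after the values were seen. They stood above their product, at 1.78 times for T and Evx1, 1.49 for Cdx2 and Evx1, 1.49 for Cdx2 and T, 1.48 for Wnt3 and Evx1, 1.35 for T and Wnt3 and 1.34 for Cdx2 and Wnt3.

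The same can be read as shares, from 1 random thinning to that depth. Cdx2 was seen in 72 of 134 Idoxuridine cells with T, 53.7% (44.9% to 62.4%), against 163 of 514 cells without T, 31.7% (27.7% to 35.9%). Evx1 was seen in 19 of the 134 cells with T, 14.2% (8.76% to 21.3%), against 24 of the 514 without, 4.67% (3.01% to 6.87%). Wnt3 was seen in 45 of 235 cells with Cdx2, 19.1% (14.3% to 24.8%), against 40 of 413 cells without Cdx2, 9.69% (7.01% to 12.95%). In these 3 pairs the counting intervals of cells with and without the first gene did not overlap. For the other 3 pairs of the group they overlapped. Wnt3 was seen in 17.9% (11.8% to 25.5%) of cells with T and 11.9% (9.20% to 14.98%) without.

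In DMSO the one pair of this group that could be read was Cdx2 and T, at 7.43 cells with both against a product of 3.96, or 1.88 times. In the single random thinning Cdx2 was seen in 9 of 31 DMSO cells with T, 29.0% (14.2% to 48.0%). It was seen in 95 of 733 without T, 12.96% (10.6% to 15.6%), and these intervals overlapped. Without thinning, 26 DMSO cells had both. Also without thinning, T and Evx1 were seen together in 48 Idoxuridine cells and in 0 DMSO cells. In DMSO the product of their shares was too small to read. Whether the pairing differed between the libraries was not tested.

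Eomes, although a streak gene, was not among the pairs above. Eomes and T were seen together in 13.7 Idoxuridine cells at the fixed depth, against a product of 18.1, a ratio of 0.756, and in 1.69 DMSO cells against a product of 3.68. Without thinning they met in 42 Idoxuridine cells, near the product of 43.2, and in the single random thinning T was seen in 16 of 89 cells with Eomes, 17.98% (10.6% to 27.5%), and in 118 of 559 without, 21.1% (17.8% to 24.7%), with overlapping intervals. With Evx1, Eomes stood above the product in Idoxuridine, at 8.39 cells against 6.75 (1.24 times). Without thinning these 2 genes met in 29 cells against a product of 18.6, a count that carries differences in depth. The single random thinning gave 4 cells. Whether either pair departs from its product was not tested. Eomes and Wnt3 stood at 0.90 and Eomes and Cdx2 at 0.98 in Idoxuridine. Tfap2c was near its product with every regulator that could be read, at 0.93 to 1.05 times in Idoxuridine, where Cdx2 and Tfap2c stood at 0.97. Cdx2 and Tfap2c thus met no more often than their shares give, whereas Cdx2 stood above its product with T, Evx1 and Wnt3. Gata3, Mixl1 and Kdr met other regulators in few cells. Without thinning Gata3 met Cdx2 in 15 Idoxuridine cells (product 13.1), Mixl1 met T in 16 (15.6) and Kdr met Eomes in 10 (5.43). At the fixed depth these were 5.96, 7.74 and 3.37 cells, and the product for Kdr and Eomes was too small to read.

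**Figure D4:**
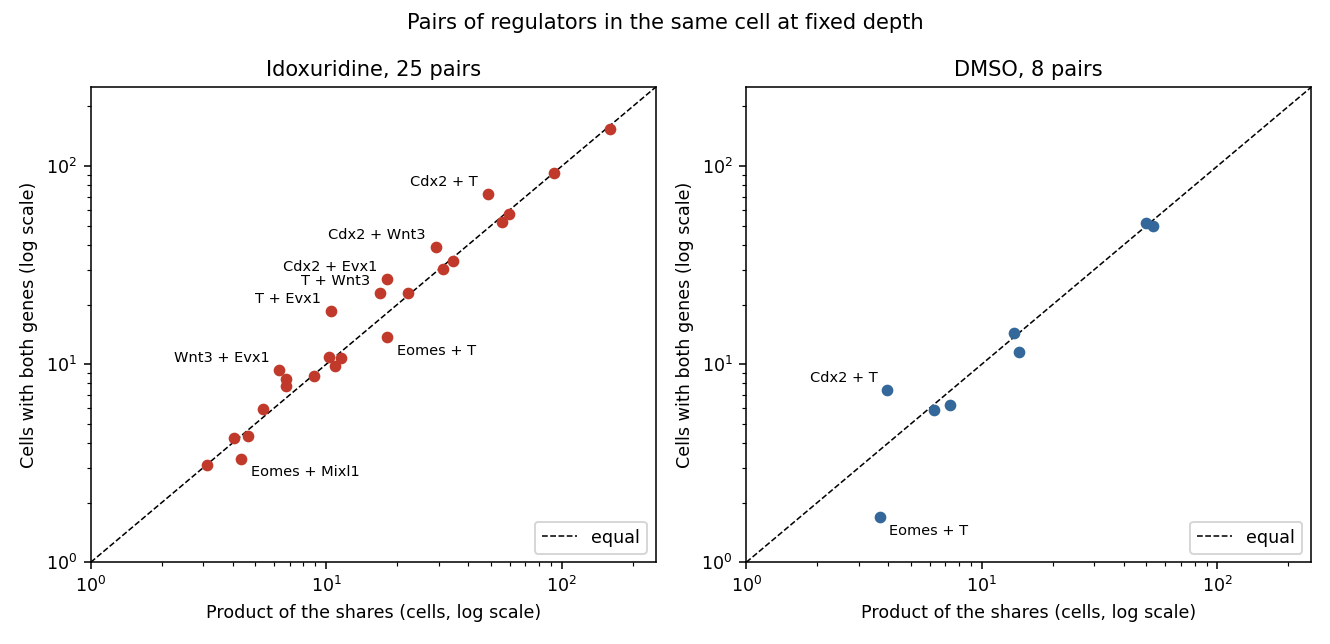
Number of cells with both genes of a pair at the fixed depth (vertical, log scale) against the product of the 2 shares in cells (horizontal, log scale) for the 25 pairs read in Idoxuridine (left) and the 8 read in DMSO (right); the dashed line marks equal numbers. The 6 pairs among T, Evx1, Wnt3 and Cdx2 lie above the line in Idoxuridine, and Eomes with T lies below it in both panels.

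Counted over the whole set, 10.7% of Idoxuridine cells and 34.1% of DMSO cells had no regulator at the fixed depth, and 20.8% and 2.03% had at least 3. The products of the shares give 19.4% and 2.19% for at least 3, which is close to the observed shares in both libraries. Of the 5 streak regulators (T, Wnt3, Eomes, Mixl1 and Evx1), at least 1 was seen in 46.1% of Idoxuridine cells and 19.4% of DMSO cells. At least 3 were seen in 1.75% of Idoxuridine cells, against 1.23% from the shares. Without thinning, 50 Idoxuridine cells and 0 of 811 DMSO cells had at least 3 of them. The numbers that the single shares give without thinning, which are lower in DMSO for most of these genes, were not computed.

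Cells that showed a regulator still showed the pluripotency genes. A list of 10 such genes (Pou5f1, Sox2, Nanog, Klf4, Klf2, Esrrb, Zfp42, Tbx3, Tfcp2l1 and Prdm14) was summed per cell at the fixed depth. In Idoxuridine the median was 85 UMIs (quartiles 70 to 101.5) in 235 cells with Cdx2, against 93 (77 to 113) in 413 cells without. It was 86 (70 to 97) in cells with T, against 92 (75 to 112) without, and 83 (71 to 97) in cells with Wnt3, against 91 (74 to 111) without. Mixl1 had 82.5 with and 90 without. The order was the other way for Eomes, at 96 (82 to 111) with and 89 (73 to 107) without, and for Tfap2c, at 91 with and 87 without, and Evx1 had 90 in both. The quartile ranges overlapped in every one of these comparisons.

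Pou5f1, the partner of Cdx2 in mutual repression, averaged 36.6 UMIs in Idoxuridine cells with Cdx2 and 37.8 in those without, and 47.1 with and 47.6 without in DMSO. Nanog averaged 4.75 UMIs with Cdx2 and 5.81 without in Idoxuridine, and 6.96 with and 7.34 without in DMSO. In DMSO the list had a median of 127 UMIs (112.75 to 139) with Cdx2 and 131 (118 to 147) without. For this sum, within-library differences were thus small beside the one between the libraries. Single genes could differ more. In Idoxuridine, Nanog averaged 4.46 UMIs with Wnt3 and 5.57 without, and 4.80 with T and 5.59 without. Pou5f1 averaged 31.3 in 26 cells with Mixl1 and 37.6 without. Both genes averaged more UMIs with Eomes or Evx1 than without, and Nanog also with Tfap2c. Cells with and without a regulator also differed in depth before thinning: with Wnt3 the median was 45534 UMIs, against 39107 without, and the part of depth in these differences was not tested. No correction for pairs of cells caught in 1 droplet was made.

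**Figure D5:**
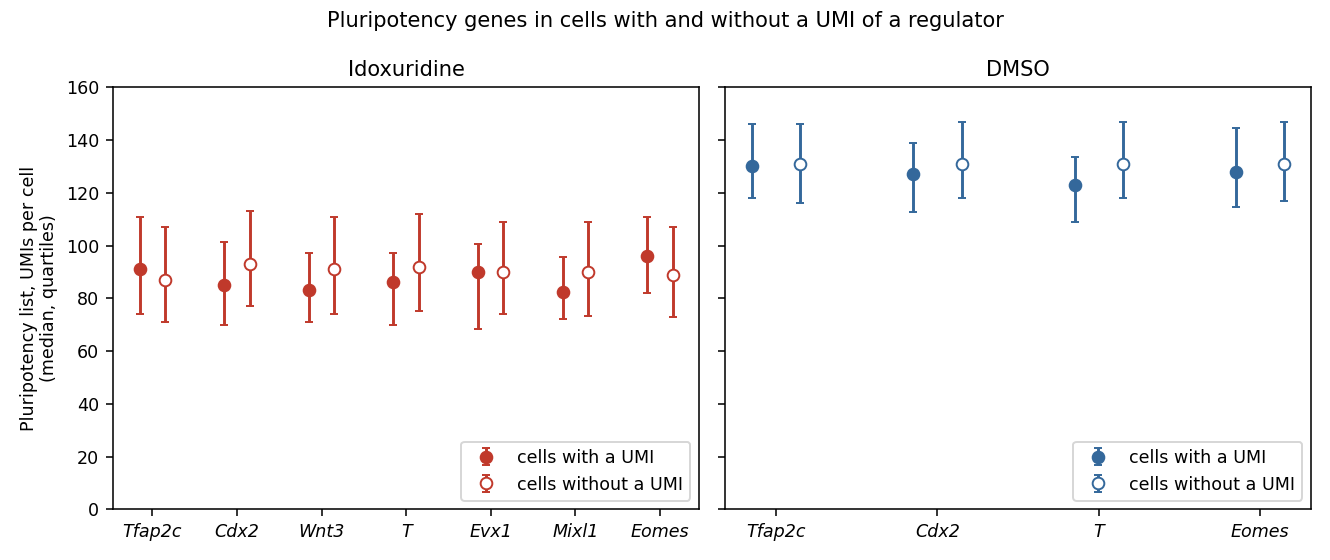
Summed UMIs per cell of 10 pluripotency genes at the fixed depth, as median (point) and quartiles (bars), in Idoxuridine cells (left panel, red) and DMSO cells (right panel, blue) with a UMI of a regulator (filled) and without one (open); regulators with at least 20 cells of each kind are shown. The medians run from 82.5 to 96 in Idoxuridine and from 123 to 131 in DMSO, and the quartile ranges with and without a regulator overlap throughout.

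Genes whose UMIs ran most like those of a regulator across cells were sought by Pearson's r of log-transformed thinned UMIs, over 648 Idoxuridine and 764 DMSO cells, for regulators seen in at least 10% of cells. For Cdx2 in Idoxuridine they were Sp5 (r = 0.30), Peg3 (0.22) and Tdrd12 (0.22). For Cdx2 in DMSO they were Grsf1 (0.34), Peg10 (0.33) and Sp5 (0.30). Sp5, a transcription factor gene that canonical Wnt signals switch on, thus stood among the 3 nearest genes in both libraries. For T in Idoxuridine they were Alox15 (0.24), Sp5 (0.24) and Msx1 (0.23). Tfap2c, Eomes and Wnt3 had no gene at an r of 0.2 or more. These values describe cells of 1 library with sparse counts and carry no test.

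Other genes of the same lineages and pathways were read from lists, by the same rule of size. Their counts stand beside a background of 24.5% higher and 3.72% lower over all genes, and of 48.0% higher for genes with 50 to under 500 UMIs and 18.5% for those with 500 to under 5000. Of 20 further trophoblast genes 15 had at least 50 UMIs, and 10 of these were higher and 0 lower, with a median log2 ratio of 1.10 (8 higher, 0 lower and 0.89 with TMM scaling). In the rarer range 5 of 6 were higher, and in the middle range 5 of 7. They included the keratin gene Krt7 at 2.73 CPM (83 UMIs) in Idoxuridine and 0.122 CPM (5 UMIs) in DMSO, and the GATA factor gene Gata2 at 22.4 and 1.37 CPM. The placental homeobox gene Esx1 stood at 16.3 and 1.59 CPM, and the trophoblast factor gene Ascl2 at 16.0 and 1.91 CPM. The other 5 readable genes, named after their values were seen, were in neither group. Their log2 ratios were 0.44 (Krt8), 0.00 (Ets2), -0.12 (Tfap2a), -0.16 (Tead4) and -0.25 (Klf5). The list summed to 453 CPM in Idoxuridine and 374 CPM in DMSO. Of the trophoblast genes under 50 UMIs, Elf5, which maintains trophoblast stem cells, had 16 UMIs in Idoxuridine and 3 in DMSO. Hand1 had 47 and 2, Dlx3 22 and 0, Plac1 21 and 3, and Tpbpa had 0 in both.

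Of 26 further genes of streak, mesoderm and endoderm 13 could be read, with 6 higher, 0 lower and a median of 0.69 (6 higher, 1 lower and 0.47 with TMM scaling). In the rarer range 5 of 7 were higher, and in the middle range 1 of 4. They included Gata6 at 2.13 CPM in Idoxuridine and 0.122 in DMSO, Sox17 at 2.86 and 0.392, both endoderm factors, the cadherin gene Cdh2 at 12.2 and 2.72, and Mesp2 at 1.74 and 0.490. Of the streak genes downstream of T, Msgn1 had 0 UMIs in both libraries and Tbx6 had 8 in Idoxuridine and 4 in DMSO. Others under 50 UMIs included Mesp1 with 39 and 4, Foxa2 with 25 and 1, Wnt8a with 31 and 13, and Fgf8 with 15 and 13. The trophoblast and streak list genes under 50 UMIs were named after their values were seen.

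The canonical Wnt list had 9 of 18 genes higher, 0 lower and a median of 0.47, and with TMM scaling 6 higher, 1 lower and a median of 0.26. In the rarer range 3 of 4 were higher, and in the middle range 5 of 11. The 4 with the largest ratios, Dkk1, Nkd1, Rnf43 and Znrf3, encode inhibitors of the pathway. Dkk1 stood at 19.9 CPM in Idoxuridine and 3.67 in DMSO, Nkd1 at 9.46 and 3.36, Rnf43 at 3.12 and 1.15, and Znrf3 at 9.33 and 4.63. Notum, another such inhibitor, named after its value was seen, had the opposite sign, at 24.3 CPM in Idoxuridine and 30.3 in DMSO (log2 ratio -0.32, -0.45 to -0.19). The remaining genes called higher were Lef1 (log2 ratio 0.74), Cdx1 (0.72), Axin2 (0.59), Tcf7l2 (0.54) and Sp5 (0.50). They too were named after their values were seen. The Nodal list went both ways, with 4 of 15 genes higher, 4 lower and a median of -0.23, and with TMM scaling 2 higher and 5 lower. Its members included Lefty2 (log2 ratio -2.25) and Lefty1 (-1.24), which Nodal switches on and which were lower, and the SMAD repressor gene Skil (1.37), which was higher.

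Marker lists of other cell types were read by the same rule, and many of their genes had under 50 UMIs. Of 18 primitive endoderm markers 11 could be read, of which 9 were higher and Sparc (log2 ratio -0.04) and Lama1 (-0.14) were in neither group, and the list summed to 522 CPM in Idoxuridine and 404 CPM in DMSO. All 7 readable markers in the rarer range were higher, as were 2 of 3 in the middle range. The list median log2 ratio was 2.12. All 3 readable neuroectoderm markers of 10 were higher (sums of 210 and 133 CPM), and of 5 readable fibroblast markers of 10, 3 were higher and Vim was lower (sums of 414 and 573 CPM). Among 2-cell-like genes 1 of 7 found could be read, Gm5662, which was higher, and the defining Zscan4 genes had at most 1 UMI in either library. Of the pluripotency list 4 of 10 genes were lower and 0 higher (sums of 3999 and 5648 CPM). The others had log2 ratios of -0.42 (Esrrb), -0.40 (Nanog), -0.39 (Zfp42), -0.36 (Pou5f1), -0.22 (Prdm14) and -0.20 (Klf4). No count with the TMM shift of -0.21 is given for this list. Its 8 genes with at least 5000 UMIs lie in a range for which no background is given.

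Of 20 genes of adult tissues that stem cells should lack, 4 could be read, and 3 of them were higher (Ckm, Mbp and Tnnt2) and 1 lower (Cd3e), all in the range of 50 to under 500 UMIs. That list summed to 15.9 CPM in Idoxuridine and 5.07 CPM in DMSO, with 7 and 12 of its genes at 0, and its highest single gene stood at 4.47 CPM (Ckm, 0.122 CPM in DMSO) and 2.89 CPM (Cd3e). The part of a general rise of rare genes in the regulators' ratios was not tested beyond the comparison with genes of similar abundance given above.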

How the data were processed

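Single-cell 3′ RNA libraries (10x Chromium V2) of E14 cells, 1 per treatment, were grouped by their treatment label. The authors deposited raw UMI counts as a whole-number matrix for each library, per the file headers. The submitters' processing notes name Cell Ranger 2, Seurat and mm10 without a role, and how barcodes were selected is not given in the sources used here. Every barcode was kept and no doublets were called. UMIs were summed per library and scaled to the library total (CPM), with exact Poisson intervals for levels and exact conditional binomial intervals for ratios. Shares have exact binomial (Clopper-Pearson) intervals. Intervals and floors of 3 counts cover counting error only. The size rule was applied to all 12629 genes with at least 50 UMIs and was tested on simulated data. Cells were thinned without replacement to 23500 UMIs, the 10th percentile of depth over all cells rounded down to a multiple of 500. Shares, pair counts and Fano factors are the exact expectation of thinning, and shares within cells with or without a gene, pluripotency sums and correlations use 1 seeded draw. The named genes are the 10 regulators, up to 4 genes per list with the largest ratios past the size rule, and up to 3 correlated genes per regulator with r of at least 0.2, of which 1 list gene is not reported here. The regulators and lists were chosen with earlier results of these data known. TMM factors came from edgeR 4.0.16, and other values from Python 3.11.15 with scipy 1.17.1. Overlapping genes were read from GENCODE on GRCm38, where 99.0% of gene identifiers were found.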

Additional observations from a re-analysis of the deposited data

How the results depend on the processing

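No paired analysis was possible because there was 1 library per treatment, and for the same reason no replicate could be left out. The count of 6 higher and 0 lower regulators was unchanged in number with TMM and median-of-ratios scaling, with the mean of per-cell CPM, without the 5% of cells with the most UMIs, without cells over 5% mitochondrial UMIs and in cells of similar nuclear-retained RNA share. It was 4 with a minimum of 200 UMIs, 7 with no minimum (Gata3 joined) and 5 at 1 log2 or more (Tfap2c dropped out), with 0 lower each time. Over 7 alternatives the log2 ratio ran from 3.62 to 4.04 for Wnt3, 3.49 to 3.82 for Evx1, 2.75 to 3.08 for T and 1.29 to 1.71 for Mixl1. It ran from 1.24 to 1.56 for Cdx2 and 0.73 to 0.99 for Tfap2c, where both other scalings left the counting interval. Eomes (-0.18 to 0.26) and Kdr (-0.16 to 0.16) changed sign. Leaving out the 2 barcodes found in both libraries, an alternative added after the data were seen, moved no ratio by more than 0.102 log2 (Mixl1). Without thinning, 29 of 33 readable pairs in Idoxuridine and 10 of 18 in DMSO were above the product of shares, against 12 of 25 and 3 of 8 at the fixed depth, and the unthinned counts carry the differences in depth between cells. At 15000 UMIs they were 12 of 21 and 2 of 6. The list median of trophoblast genes was 1.67 with a minimum of 20 UMIs. Depth leaves no ratio for Cer1, Gata3 under the minimum, and wide intervals for Mixl1 and Kdr, and differences between 2 single libraries have no replicate check.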

Other observations

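Some Idoxuridine cells held many regulators, as the higher single shares in that library also give. Without thinning, 43 Idoxuridine cells (5.80%) had a UMI of at least 5 of the 10 regulators, and 0 DMSO cells had; the number that the single shares give at this limit was not computed. The Idoxuridine cells in question were deep, with a median of 56986 UMIs against 37425 over all Idoxuridine cells. A single Idoxuridine cell had a UMI of 9 of the 10 regulators. It held 81948 UMIs, more than 95.8% of the cells in its library, and whether it was 1 cell or several in 1 droplet was not tested. The highest number in a DMSO cell was 4, in 13 cells.

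A small number of DMSO cells held a large part of the control library's Cdx2. In 20 DMSO cells (2.47%) Cdx2 had at least 5 UMIs, and these held 192 of its 448 UMIs (42.9%). In Idoxuridine 64 cells (8.63%) had at least 5, and they held 446 of 942 UMIs (47.3%). At least 10 UMIs were found in 8 Idoxuridine and 9 DMSO cells, and the highest single values were 17 UMIs in Idoxuridine and 24 in DMSO. The DMSO cells with at least 5 had a median depth of 45890.5 UMIs, against 44502 over all DMSO cells. These cells were picked out after their values were seen.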
